A study of Mus musculus with 6 samples.

Results

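Transcripts of histone genes were examined in sorted HSCs (hematopoietic stem cells), from which all blood lineages descend. The members were the protein-coding rows of the deposited table whose symbols carry a histone prefix (H1f, H2ac, H2bc, H2az, H3c, H3f, H4c or the older Hist names), and they numbered 71 of the 27198 genes listed. Of these, 65 were replication-dependent cluster genes and 6 were variant genes, namely H1f0, H1f10, H2az1, H2az2, H3f3a and H3f3b. HSCs were sorted from male wild type C57BL/6 mice 8 to 10 weeks old that received either vehicle (Ctrl) or ferulic acid (FA), a plant phenolic acid, injected into the peritoneum at 50 mg/kg every day for 30 days (long-term FA, l-FA). The sort kept cells that were lineage-negative, Sca-1 and c-Kit positive, and negative for CD34 and CD135. There were 3 Ctrl and 3 l-FA libraries, each made from amplified cDNA, and the number of mice behind a library is not given in the sources used here. Adjusted p-values therefore measure the spread between these libraries, which may be partly technical. The comparison asks which histone transcripts differed in amount between HSCs of l-FA-treated and control mice.

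Histones are the proteins around which DNA is wound in the nucleosome. H2A, H2B, H3 and H4 form its core, and the linker histone H1 binds the DNA where it enters and leaves. Replication-dependent genes lie in clusters, carry no introns as a rule, are transcribed mainly in S phase and usually end in a conserved stem-loop in place of a poly(A) tail. Variant genes are transcribed throughout the cell cycle, carry poly(A) tails and supply histones such as H3.3 and H2A.Z outside replication. Because reverse transcription of these libraries was primed with oligo(dT), the levels below are those of histone RNA reached by that primer, and total histone mRNA was not measured.

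The stem-loops are shown first because the 2 kinds of gene differ in them. Sequences were read from GENCODE M21 transcripts of build GRCm38, in which all 71 members were found, and capitals mark the stem-loop of 16 letters. The linker histone gene H1f2 carries it at chr13:23739505-23739534 (plus strand), the H2A gene H2ac23 at chr13:21810891-21810920 (plus), the H2A gene H2ac25 at chr11:58955165-58955194 (plus), the H2B gene H2bc27 at chr11:58949342-58949371 (plus), the H2B gene H2bc3 at chr13:23747196-23747225 (plus) and the H4 gene H4c14 at chr3:96262932-96262961 (minus).
H1f2: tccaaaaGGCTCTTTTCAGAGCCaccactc
H2ac23: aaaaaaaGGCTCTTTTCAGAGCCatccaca
H2ac25: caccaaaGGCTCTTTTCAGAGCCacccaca
H2bc27: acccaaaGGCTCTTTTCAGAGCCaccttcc
H2bc3: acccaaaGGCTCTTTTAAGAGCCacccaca
H4c14: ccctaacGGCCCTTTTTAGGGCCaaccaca
N stands for any base of the loop, and the motif was searched on the transcribed strand. The form GGCTCTTTTNAGAGCC stood in 32 annotated replication-dependent transcripts. The form GGCCCTTTTNAGGGCC stood in 9, all of them H4 genes. Neither form was found in any of the 6 variant transcripts, all of which held the polyadenylation signal AATAAA in their last 50 bases. Among the 65 replication-dependent transcripts 13 held that signal there.

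The annotated end of a transcript varied widely within the replication-dependent genes. In 21 genes the transcript ended within 100 bases after the stem-loop, as H2ac23 does 31 bases after it. In 20 genes it ran further, by 840 bases in H1f2, 1257 in H4c14, 1643 in H2ac25 and 2010 in H2ac6. In the other 24 genes the annotated transcript held no stem-loop of either form. The median level per length, in FPKM (fragments scaled to gene length and library size), was 5.19 for genes ending at the stem-loop, 3.16 for those running past it, 1.95 for those without it and 82.1 for variant genes. The ranges overlapped, and the gene of the highest FPKM, H2ac23, belonged to the group ending at the stem-loop. The lengths behind the deposited FPKM differ from these transcripts in some genes, as in H2bc23 (3269 beside 1254 bases) and H2bc6 (7085 beside 2506). Levels and annotated ends therefore rest on different gene models. The median log2 fold change of l-FA against Ctrl was 0.34, 0.36 and 0.41 in the 3 replication-dependent groups, so these medians lay close together. It was 0.68 over the 11 tested genes with AATAAA near the end and 0.36 over the 45 tested genes without it, given here as a description without a test.

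**Figure D1:**
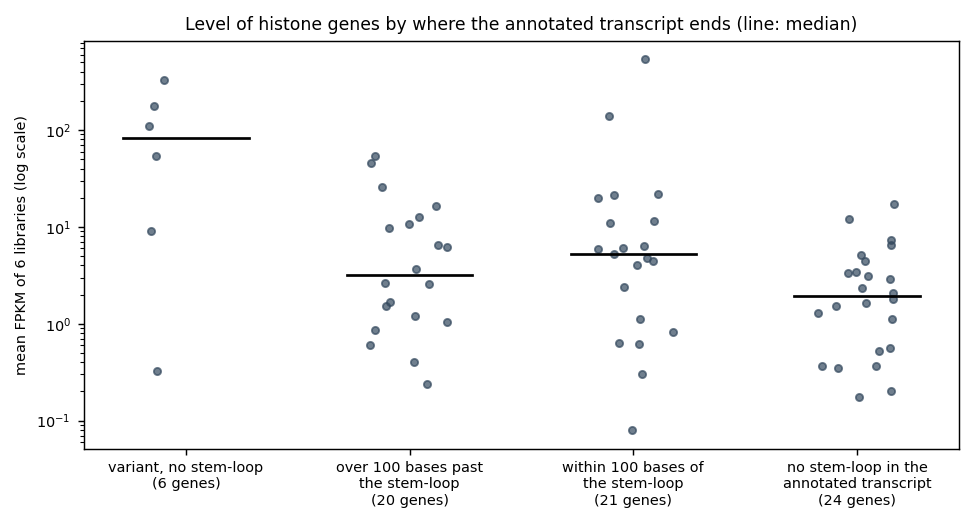
Mean FPKM of 6 libraries on a log axis for each histone gene, by kind of gene and by where the annotated transcript ends, with the median as a line. Variant genes have a median of 82.1 and the 3 replication-dependent groups medians of 3.16, 5.19 and 1.95, with wide overlap.

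Many cluster genes are near-identical copies, and this bears on every value of a single gene. A median of 42% of the 75-base stretches of a replication-dependent transcript also occurred in a transcript of another gene. That share was 93.1% for H2ac23, 92.6% for H2ac24, and 100% for H2ac18 and H2bc23, whereas it was 0% for H1f1, H2bc21 and H4c14. How reads that fit several genes were counted is not given in the sources used here, so values of single genes with a high share are uncertain, and sums over a histone class are given beside them.

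Libraries held 19287735 to 20380610 counts, of which histone genes took 0.318% to 0.324% in Ctrl and 0.373% to 0.381% in l-FA. Levels of a gene across libraries are given as CPM, counts scaled to library size with TMM factors, and changes as log2 fold changes of l-FA against Ctrl with their standard error (SE). The test was edgeR's quasi-likelihood test with Benjamini-Hochberg adjustment over all 16520 genes that passed its low-count filter, and a gene was called at an adjusted p under 0.05. The filter kept 61 histone genes, 56 replication-dependent and 5 variant, and 53 of all members had at least 10 counts in every library. The 10 not tested were H1f10, H2ac1, H2ac19, H2bc1, H3c2, H4c1, H4c2, H4c6, H4c11 and H4c12. Of these H2ac19 had 5 counts in 1 Ctrl library and 0 in the other 5 libraries.

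The histone genes that passed the test were mostly higher in l-FA. Of the 61 tested, 27 were called, beside 50.5% of all genes tested, and of these 24 (39.3%) were higher and 3 (4.92%) lower, beside 25.5% and 25.0% of all genes. Fold changes were mostly modest, and 4 histone genes rose and 1 fell by more than 2-fold, beside 6.68% and 5.10% of all genes. Estimates were positive for 48 and negative for 13, with a median of 0.36 (range -1.44 to 1.45), where the median over all genes was 0.00 and the interquartile range of single genes ran from -0.27 to 0.32. In 31 histone genes every l-FA library lay above every Ctrl library and in 5 every one lay below, beside 30.4% and 29.9% of all genes, 60.3% in either direction. In bulk libraries fewer cells of a type and less RNA per cell cannot be told apart. The median was 0.38 over the 56 replication-dependent genes and 0.09 over the 5 variant genes. Among replication-dependent genes sharing at most 20% of stretches with another gene, 10 of 15 tested were called higher and 0 lower with a median of 0.52, and among those sharing more 12 of 41 were called higher and 3 lower with a median of 0.35, values set beside the same 25.5% and 25.0% and not compared by a test. The plot of fold changes by histone shows H2B and H4 genes mostly to the right of 0 and H3 genes on both sides.

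**Figure D2:**
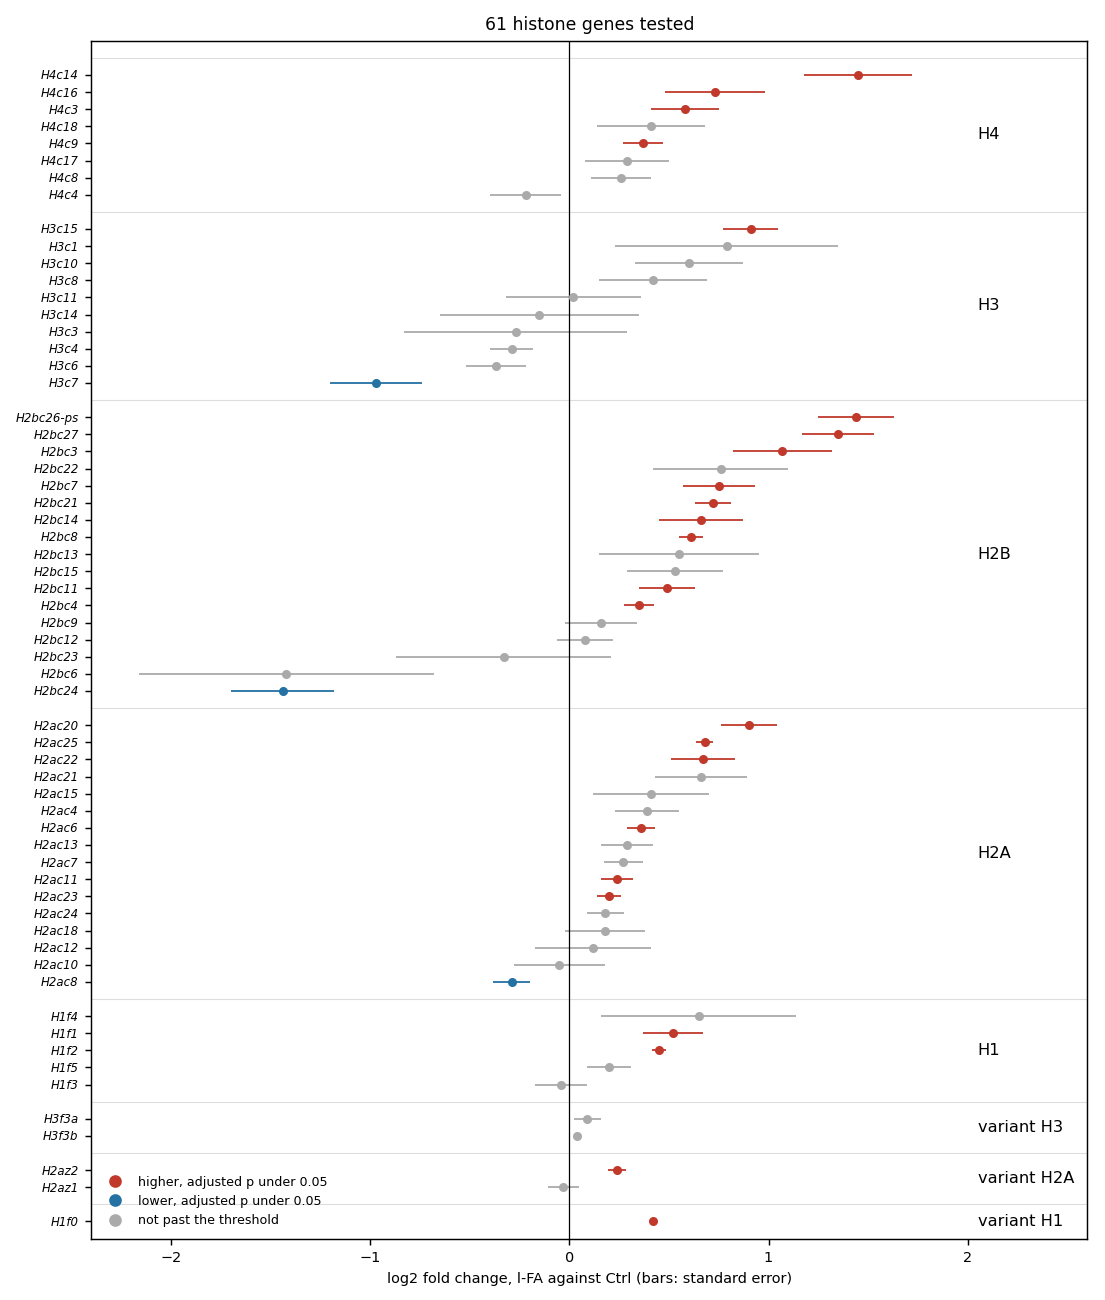
Log2 fold change of l-FA against Ctrl with its standard error for the 61 histone genes tested, grouped by histone. The 24 genes called higher are red, the 3 called lower (H2bc24, H3c7 and H2ac8) are blue, and the other 34 are grey.

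Markers of cell types moved between the groups as well, and their counts stand beside 25.5% called higher and 25.0% lower over all genes tested. Of 8 HSC markers 7 were called higher and 1 lower, with summed CPM of 1550 to 1590 in Ctrl and 1780 to 1800 in l-FA. Of 8 granulocyte and monocyte genes all 8 were called lower by more than 2-fold, with summed CPM of 22800 to 23700 in Ctrl and 5660 to 5970 in l-FA. Of 7 erythroid and megakaryocyte genes 3 were called higher and 0 lower (262 to 264 and 335 to 343 summed CPM), and of 3 B and T cell genes tested 2 were called higher (111 to 115 and 140 to 143 summed CPM over the 7 listed). Of the 6 tested genes on a list of surface proteins taken to be absent from HSCs, 3 were called higher and 2 lower. Cd48, called lower (log2 -0.15, edgeR adjusted p = 0.00176), encodes a protein that this sort did not select against. RNA of Cd34 (1320 to 1360 CPM in Ctrl, 1540 to 1620 in l-FA) and of Flt3, the gene of CD135 (756 to 763 and 1160 to 1200), was abundant despite the sort against both proteins. Ms4a1 and Pax5 of the B and T cell list and Ly6g were at 0 in all l-FA libraries. They had few counts in Ctrl as well, at 8, 13 and 7 for Ms4a1, 0, 1 and 0 for Pax5 and 3, 6 and 8 for Ly6g. No defining lymphoid marker among Cd3d, Cd3e, Ms4a1 and Pax5 passed the filter. The part of these marker changes in the histone values was not tested.

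Among the 5 variants tested the linker histone gene H1f0 had the greatest estimate. H1f0 encodes H1.0, a linker histone known to accumulate in cells that have stopped dividing. Its CPM was 312, 309 and 315 in the Ctrl libraries and 424, 411 and 418 in the l-FA libraries. The groups did not overlap, and H1f0 rose by a log2 fold change of 0.42 (SE 0.021, 1.34-fold, edgeR adjusted p = 2.99e-05). The other linker variant of the rule, H1f10, was hardly detected, with 9, 10 and 13 counts in Ctrl and 6, 6 and 3 in l-FA, and was not tested. H2az2 encodes H2A.Z.2, a form of the H2A variant that marks promoters. H2az2 had a CPM of 186, 194 and 207 in Ctrl and 236, 224 and 232 in l-FA. It rose by 0.24 (SE 0.044, adjusted p = 0.00458, edgeR) with every l-FA library above every Ctrl library. Its paralogue H2az1, which encodes H2A.Z.1, had 35, 36 and 35 CPM in Ctrl and 35.4, 31.1 and 37.7 in l-FA, with a log2 fold change of -0.03 (SE 0.076, edgeR adjusted p = 0.804). Without l-FA library 2 that estimate turned to 0.06.

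The H3.3 genes did not pass the test. H3f3b and H3f3a encode the same protein, the replacement histone H3.3, from separate genes. H3f3b had the highest count of all members, though H2ac23 stood higher in deposited FPKM (mean of 486 in Ctrl and 590 in l-FA, beside 314 and 340 for H3f3b). The FPKM of H3f3b rests on a length of 5708 bases, whereas its longest GENCODE M21 transcript has 2514. For H2ac23 both are 480, so the order of the 2 genes depends on the length used. H3f3b had a CPM of 1860, 1870 and 1800 in Ctrl and 1890, 1910 and 1870 in l-FA, with a log2 fold change of 0.04 (SE 0.019, edgeR adjusted p = 0.169). Upper-quartile scaling, which moved the median of all genes to 0.03, put it at 0.06 (edgeR adjusted p = 0.0277). H3f3a had 252, 263 and 267 CPM in Ctrl and 285, 249 and 301 in l-FA, and the groups overlapped through l-FA library 2. Its log2 fold change was 0.09 (SE 0.069, edgeR adjusted p = 0.303) and 0.18 without that library (adjusted p = 0.014). Pseudogene rows with H3f3 symbols are listed in the table as other gene types and were not members. Of these H3f3c had a mean count of 1753 and rose by 0.19 (edgeR adjusted p = 0.0211), while H3f3a-ps1 and H3f3a-ps2 did not pass. Of the stretches of H3f3a 25.7% occurred in another gene.

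Per length, H3.3 made up most H3 signal in these libraries, at 92.4% to 93.8% of summed H3 FPKM in Ctrl and 93.1% to 93.7% in l-FA. With Cenpa, the gene of the centromeric variant CENP-A, in the sum H3.3 was 89.4% to 90.8% and 89.2% to 90.4%. H2A.Z was 12.1% to 12.8% of the FPKM of H2A members in Ctrl and 11.8% to 12.9% in l-FA. That share depended on which H2A genes were summed: with H2ax, H2aj, Macroh2a1 and Macroh2a2, H2A genes outside the rule on symbols, it was 5.69% to 5.91% in Ctrl and 6.29% to 6.76% in l-FA, without overlap. The linker variants H1.0 and H1.10 together gave 71.7% to 73% of H1 FPKM in Ctrl and 72% to 72.6% in l-FA. Over the members alone the ranges of the groups overlapped in all 3 shares, no share was tested, and the wider sums were chosen after the values were seen. These are shares of oligo(dT)-primed signal, not of protein. They also depend on the lengths behind the FPKM. Those lengths exceeded the longest GENCODE M21 transcript for H3f3a (4971 beside 2841 bases) and H2az1 (3880 beside 1069), as for H3f3b.

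**Figure D3:**
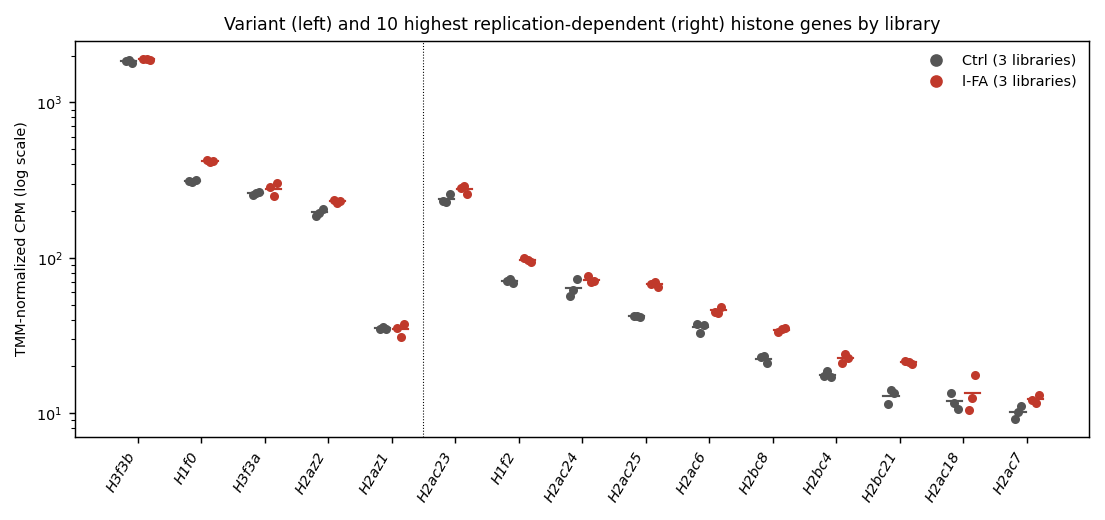
TMM-normalized CPM on a log axis in each of 3 Ctrl (grey) and 3 l-FA (red) libraries for the 5 variant genes tested and the 10 replication-dependent genes of the highest mean count, with the group mean as a line. The groups do not overlap for H1f0, H2az2, H1f2, H2ac25, H2ac6, H2bc8, H2bc4, H2bc21 and H2ac7. They overlap for H3f3b, H3f3a, H2az1, H2ac24 and H2ac18, and for H2ac23 the highest Ctrl and the lowest l-FA library are level.

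Summed over all 65 replication-dependent genes, CPM was 631, 640 and 686 in Ctrl and 823, 825 and 791 in l-FA. Every l-FA library was above every Ctrl library, and the ratio of means was 1.25 (SD 0.0631, n = 3 per group). On FPKM, which carries no TMM scaling, the ratio was 1.28, and without H2ac23 it was 1.3 on CPM. The 6 variant genes summed to 2650, 2670 and 2630 CPM in Ctrl and 2870, 2830 and 2850 in l-FA, a ratio of 1.08 (SD 0.0131), which became 1.19 on FPKM and 1.19 on CPM without H3f3b. The sums are given as values in each library, without a test. The 10 replication-dependent genes of the highest count held 80.6% to 81.1% of the counts of their kind in Ctrl and 81.1% to 81.7% in l-FA.

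The sums are given by histone. The H2B sum was 79.2, 83.2 and 82.8 CPM in Ctrl and 118, 119 and 113 in l-FA, a ratio of 1.43 (SD 0.0556). The ratio was 1.37 (SD 0.0803) for H4, 1.34 (SD 0.0427) for H1 and 1.21 (SD 0.0803) for H2A, each without overlap between the groups. Only for H3 did the libraries overlap among these 5 sums, at 23.9, 24.1 and 27 CPM in Ctrl and 24.8, 23.1 and 22.3 in l-FA. The H3 ratio was 0.936 (SD 0.0832) on CPM and 1.06 (SD 0.142) on FPKM, so its direction depended on the scale.

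**Figure D4:**
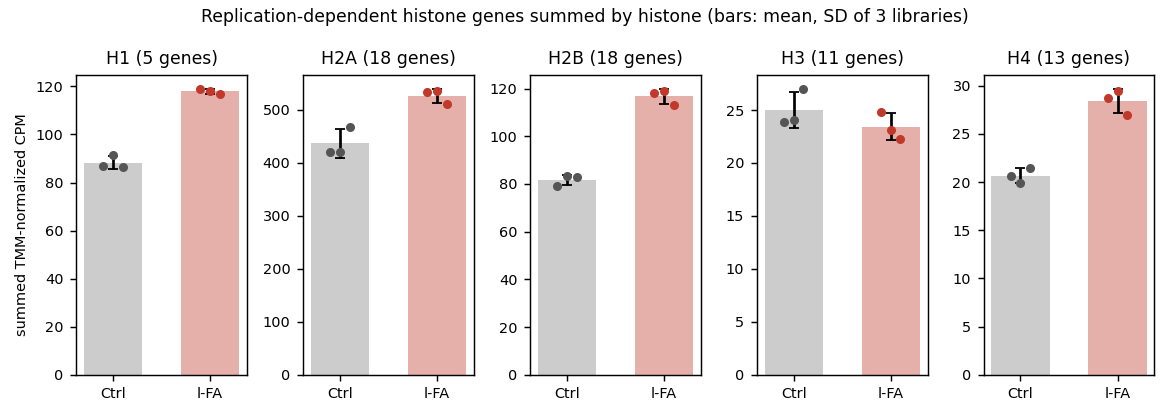
Summed TMM-normalized CPM of the replication-dependent genes of each histone, with the mean as a bar, the SD of 3 libraries as an error bar and each library as a point. The l-FA libraries lie above the Ctrl libraries for H1, H2A, H2B and H4, with ratios of 1.34, 1.21, 1.43 and 1.37, and overlap with them for H3 (0.936).

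Of the replication-dependent linker genes, 2 of 5 tested (40%) were called higher and 0 lower, beside 25.5% and 25.0% of all genes. Their median log2 fold change was 0.45. H1f2 encodes H1.2, a main somatic linker histone, and the table lists it at chr13:23922791-23924350. Its CPM was 70.9, 72.7 and 69 in Ctrl and 99.4, 96.8 and 94.5 in l-FA. H1f2 rose by 0.45 (SE 0.037, edgeR adjusted p = 0.000168), with the groups far apart, and only 6.66% of its stretches occurred in another gene. H1f1 rose by 0.52 (SE 0.15, edgeR adjusted p = 0.024) at 1.91 to 2.35 CPM in Ctrl. Its call was lost with DESeq2 (adjusted p = 0.0652) and on leaving out Ctrl library 2 (0.0667), Ctrl library 3 (0.0729) or l-FA library 3 (0.0689) with edgeR. H1f3 (-0.04), H1f4 (0.65) and H1f5 (0.20) did not pass. In H1f4, a gene that overlaps H2bc6 in the table, Ctrl library 1 had 25 counts beside 92 and 107 in the other Ctrl libraries.

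Of the H2A genes, 6 of 16 tested (37.5%) were called higher and 1 (6.25%) lower, beside 25.5% and 25.0% of all genes. Their median log2 fold change was 0.28. H2ac23 had the highest count of all replication-dependent genes, and H2ac23 and H2ac24 together made 63.3% to 65.6% of replication-dependent FPKM in Ctrl and 59.4% to 61.3% in l-FA. H2ac23 had a CPM of 231, 230 and 259 in Ctrl and 281, 288 and 259 in l-FA, so that the highest Ctrl and the lowest l-FA library were level. Its rise of 0.20 (SE 0.06, edgeR adjusted p = 0.0305) was not called without Ctrl library 1 (adjusted p = 0.0896), Ctrl library 2 (0.0895), l-FA library 1 (0.0705) or l-FA library 2 (0.0761). H2ac24 had 56.5, 62.3 and 72.5 CPM in Ctrl and 76.1, 69.6 and 70.7 in l-FA, with a log2 fold change of 0.18 (SE 0.093, edgeR adjusted p = 0.159). The groups overlapped through Ctrl library 3, without which the value was 0.27 (adjusted p = 0.0221).

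H2ac25 and H2ac6 gave larger estimates than the 2 H2A genes of the highest count. H2ac25, at chr11:58845511-58847656 in the table, had 41.9, 42.4 and 41.6 CPM in Ctrl and 68.2, 69.5 and 64.4 in l-FA. It rose by 0.68 (SE 0.043, 1.61-fold, edgeR adjusted p = 6.29e-05), and Trim17, which overlaps it in the table, reached at most 4 counts. H2ac6 had 37.3, 32.8 and 37 CPM in Ctrl and 45, 44.1 and 48.5 in l-FA, and rose by 0.36 (SE 0.069, edgeR adjusted p = 0.00492). In both genes every l-FA library was above every Ctrl library. H2ac18 had 13.4, 11.7 and 10.7 CPM in Ctrl and 10.5, 12.5 and 17.5 in l-FA, with overlapping groups. Its log2 fold change of 0.18 (SE 0.2, edgeR adjusted p = 0.496) turned to -0.04 without l-FA library 3. H2ac7 had 9.17, 10.2 and 11.1 CPM in Ctrl and 12.1, 11.7 and 13.1 in l-FA. With edgeR it was at 0.27 (SE 0.098, adjusted p = 0.0591), and it passed with upper-quartile scaling (0.29, adjusted p = 0.0479) or without Ctrl library 3 (0.33, adjusted p = 0.0405).

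At lower levels, H2ac20 (0.90, edgeR adjusted p = 0.00217) and H2ac22 (0.67, adjusted p = 0.0139) also rose. H2ac11 (0.24, edgeR adjusted p = 0.0455) was called higher and H2ac8 (-0.29, adjusted p = 0.038) lower, and both calls were fragile. Leaving out any library but Ctrl library 3 ended the call of H2ac11, with edgeR adjusted p of 0.126 without Ctrl library 1, 0.103 without Ctrl library 2, and 0.094, 0.106 and 0.059 without l-FA library 1, 2 and 3. For H2ac8 leaving out any library did so, with adjusted p of 0.0622, 0.0802 and 0.0984 without Ctrl library 1, 2 and 3 and 0.0674, 0.0738 and 0.125 without l-FA library 1, 2 and 3. DESeq2 called neither gene (adjusted p = 0.115 for H2ac11 and 0.105 for H2ac8). H2ac4 (0.39, edgeR adjusted p = 0.0801) passed without Ctrl library 3 (0.57, adjusted p = 0.00982).

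Of the H2B genes, 9 of 17 tested (52.9%) were called higher and 1 (5.88%) lower, beside 25.5% and 25.0% of all genes. Their median log2 fold change was 0.55, and 3 of the 4 histone genes that rose by more than 2-fold were H2B genes. H2bc8 was the H2B gene of the highest count, with 23, 23.4 and 21 CPM in Ctrl and 33.2, 34.6 and 35.3 in l-FA. It rose by 0.61 (SE 0.062, edgeR adjusted p = 0.000346) without overlap between the groups. H2bc4 had 17.3, 18.7 and 17 CPM in Ctrl and 21, 23.9 and 22.6 in l-FA, and rose by 0.35 (SE 0.075, edgeR adjusted p = 0.00799). H2bc21, of which no 75-base stretch occurred in another gene, had 11.4, 14 and 13.5 CPM in Ctrl and 21.7, 21.4 and 20.8 in l-FA. H2bc21 rose by 0.72 (SE 0.09, 1.64-fold, edgeR adjusted p = 0.000865), and its lowest l-FA library stood well above its highest Ctrl library.

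The H2B genes with the larger changes had fewer counts. H2bc27, at chr11:58839746-58840359 in the table, had 105, 61 and 83 counts in Ctrl and 217, 234 and 220 in l-FA, or 3.27 to 5.47 and 10.3 to 11.7 CPM. It rose 2.55-fold (log2 1.35, SE 0.18, edgeR adjusted p = 0.00114). H2bc26-ps, typed as protein-coding in the table although its symbol marks a pseudogene, had 12, 13 and 11 counts in Ctrl and 35, 31 and 38 in l-FA. It rose 2.72-fold (log2 1.44, SE 0.19, edgeR adjusted p = 0.00099). H2bc3 had 11, 14 and 20 counts in Ctrl and 28, 36 and 36 in l-FA, and rose 2.1-fold (log2 1.07, SE 0.25, edgeR adjusted p = 0.0123). In all 3 genes the groups did not overlap.

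H2bc24 was the 1 histone gene that fell by more than 2-fold. It had 31, 40 and 37 counts in Ctrl and 15, 18 and 9 in l-FA, a log2 fold change of -1.44 (SE 0.26, edgeR adjusted p = 0.00428) without overlap. Of its stretches 99.8% occurred in another gene, so this value depends on how shared reads were counted. Among the other H2B genes, H2bc7 (0.75, edgeR adjusted p = 0.0128) was called higher under every alternative, with an adjusted p of 0.038 from glmTreat. H2bc11 (0.49, edgeR adjusted p = 0.0222) was not called without Ctrl library 1 (adjusted p = 0.0631), Ctrl library 2 (0.068) or l-FA library 1 (0.0609). H2bc14 (0.66, edgeR adjusted p = 0.0345) was not called without Ctrl library 1 (0.0934) or 3 (0.099) or l-FA library 1 (0.0564) or 3 (0.0802). H2bc6 varied widely within both groups, with 21, 45 and 79 counts in Ctrl and 42, 6 and 9 in l-FA, and did not pass (-1.42, edgeR adjusted p = 0.154) except without l-FA library 1 (-2.70, adjusted p = 0.0236). H2bc23 had 118 and 96 counts in l-FA libraries 1 and 2 but 18 in l-FA library 3.

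The H3 genes had estimates on both sides of 0. Of 10 tested, 1 (10%) was called higher and 1 (10%) lower, beside 25.5% and 25.0% of all genes. Of the estimates 5 were positive and 5 negative, and the median was -0.06. H3c15 had 40, 33 and 34 counts in Ctrl and 67, 71 and 75 in l-FA, and rose by 0.91 (SE 0.14, edgeR adjusted p = 0.00212). H3c7 had 44, 54 and 67 counts in Ctrl and 39, 25 and 25 in l-FA, and its log2 fold change was -0.97 (SE 0.23, edgeR adjusted p = 0.0125). The remaining 8 ranged from -0.37 for H3c6 to 0.79 for H3c1 and did not pass. Of these, H3c4 (-0.29) passed without Ctrl library 2 (-0.36, edgeR adjusted p = 0.0321) and H3c10 (0.60) without Ctrl library 3 (0.95, adjusted p = 0.0135).

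Of the H4 genes, 4 of 8 tested (50%) were called higher and 0 lower, beside 25.5% and 25.0% of all genes. Their median was 0.39, and 5 further H4 genes had too few counts to test. H4c14 had 15, 29 and 31 counts in Ctrl and 66, 67 and 84 in l-FA. It rose 2.74-fold (log2 1.45, SE 0.27, edgeR adjusted p = 0.00459), the greatest estimate of all 61 histone genes, and none of its stretches occurred in another gene. H4c3 (0.58, edgeR adjusted p = 0.0264), H4c9 (0.37, adjusted p = 0.0231) and H4c16 (0.73, adjusted p = 0.0455) were also called. These 3 calls were not kept without Ctrl library 2, where edgeR adjusted p was 0.0582 for H4c3, 0.0698 for H4c9 and 0.127 for H4c16. H4c3 was also lost without Ctrl library 3 (0.0622) or l-FA library 2 (0.0716) or 3 (0.0698), H4c9 without Ctrl library 1 (0.0631) or l-FA library 1 (0.0651), and H4c16 without Ctrl library 3 (0.129) or l-FA library 1 (0.116) or 2 (0.113). H4c18 (0.41) passed without Ctrl library 2 (0.71, edgeR adjusted p = 0.0483).

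Replication-dependent genes lie in 4 places in the mouse genome, and their changes are given by place. On chromosome 13, which holds the main cluster, 14 of 45 genes tested (31.1%) were called higher and 3 (6.67%) lower. Over all genes these shares were 25.5% and 25.0%, and the median log2 fold change on chromosome 13 was 0.29. On chromosome 3, 4 of 7 were called higher and 0 lower, with a median of 0.72. On chromosome 11, all 3 genes, H2ac25, H2bc26-ps and H2bc27, were called higher at 0.68, 1.44 and 1.35. On chromosome 6, H4c16 stands alone. Differences between the places were not tested.

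H2A and H2B genes often stand head to head and are read in opposite directions from 1 shared promoter region. In the deposited coordinates 13 such pairs lay 175 to 305 bases apart. Both members were called higher in 4 pairs, where 25.5% of all single genes tested were called higher. These pairs were H2ac20 and H2bc21 (0.90 and 0.72), H2bc26-ps and H2ac25 (1.44 and 0.68), H2ac6 and H2bc4 (0.36 and 0.35) and H2ac11 and H2bc11 (0.24 and 0.49). For H2ac11 and H2bc11 both calls were lost without Ctrl library 1, Ctrl library 2 or l-FA library 1. The pair H2bc1 and H2ac1 had too few counts to test. In the pair H2ac8 and H2bc8, which lie 175 bases apart, H2ac8 was at -0.29, a call lost on leaving out any 1 library, and H2bc8 was called higher (0.61). Estimates also had opposite signs in H2ac24 and H2bc24 (0.18 and -1.44) and in H2bc23 and H2ac23 (-0.33 and 0.20); in these pairs every member shared at least 92.6% of its stretches with other genes.

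Promoter sequences are shown for genes that stand for these patterns, from RefSeq on GRCm38.p6. Each is the 150 bases before the start, with capitals at CCAAT and TATAAA, boxes common in promoters. Capitals also mark the octamer ATTTGCAT, and all were searched on both strands. The H2B gene H2bc8, of the closest pair, lies at chr13:23571250-23571399 (plus strand), H2ac20, of a pair in which both rose, at chr3:96220881-96221030 (minus), H3f3b, the member of the highest count, at chr11:116024505-116024654 (minus) and H1f0, the variant with the greatest estimate, at chr15:79028062-79028211 (plus).
H2bc8: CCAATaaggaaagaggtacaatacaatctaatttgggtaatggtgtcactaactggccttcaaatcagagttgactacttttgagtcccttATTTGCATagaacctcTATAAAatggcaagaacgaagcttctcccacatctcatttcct
H2ac20: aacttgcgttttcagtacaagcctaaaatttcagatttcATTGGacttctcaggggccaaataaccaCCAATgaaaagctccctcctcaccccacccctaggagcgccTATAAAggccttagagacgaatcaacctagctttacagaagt
H3f3b: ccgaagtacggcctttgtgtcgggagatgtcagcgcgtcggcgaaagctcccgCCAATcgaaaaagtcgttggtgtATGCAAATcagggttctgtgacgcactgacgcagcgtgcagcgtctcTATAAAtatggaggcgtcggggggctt
H1f0: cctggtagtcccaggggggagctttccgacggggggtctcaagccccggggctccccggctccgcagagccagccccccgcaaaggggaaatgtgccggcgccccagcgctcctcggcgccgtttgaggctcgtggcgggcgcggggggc
Of the 250 bases before the start, matched for 61 members, CCAAT stood in all 17 H2A, all 13 H2B and all 5 H1 replication-dependent promoters, in 7 of 9 H3 and in 3 of 11 H4 promoters, beside 37.5% of the 27025 promoters in the table. TATAAA stood in 50.9% of replication-dependent promoters and 14.3% of all. The octamer stood in 6 of 17 H2A and 6 of 13 H2B promoters and in 0 of the H1, H3 and H4 promoters of replication-dependent genes, beside 1.81% of all. H3f3b held all 3 motifs and H1f0 none. A match describes letters only, and no site was tested.

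The genes that supply histones were described from lists of their known roles. Over 53 genes, all tested, 10 (18.9%) were called higher and 21 (39.6%) lower, beside 25.5% and 25.0% of all genes tested, and none changed by more than 2-fold, with a median log2 fold change of -0.07. Among 7 genes of histone transcription 3 were called higher and 0 lower. Cdk2, the kinase that with cyclin E activates the histone locus coactivator Npat, rose by 0.28 (edgeR adjusted p = 0.00336). Casp8ap2, a component of histone locus bodies, was at 0.13 (edgeR adjusted p = 0.0433) but was not called by DESeq2 (0.0583), nor by edgeR without Ctrl library 1 (0.12), 2 (0.0666) or 3 (0.113) or without l-FA library 2 (0.0923). Npat itself had 45.8 to 49.8 CPM in Ctrl and 43.1 to 48.6 in l-FA, and is named after its values were seen.

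Among 10 genes of histone pre-mRNA 3' end processing 3 (30%) were called higher and 4 (40%) lower, beside 25.5% and 25.0% of all genes. Cstf2, a cleavage factor subunit, fell (log2 -0.17, edgeR adjusted p = 0.00339). Cpsf3, the endonuclease that cuts the pre-mRNA, was at -0.16 (edgeR adjusted p = 0.047) and was called without Ctrl library 1 but not without any other library (edgeR adjusted p 0.0859 without l-FA library 1, 0.0926 without l-FA library 2, 0.159 without l-FA library 3, 0.103 without Ctrl library 2 and 0.0919 without Ctrl library 3). Slbp, the protein that binds the stem-loop, rose by 0.13 (edgeR adjusted p = 0.00577), and like Upf1 and Hira below it is named after its values were seen. Among 4 genes of histone mRNA decay 0 were called higher and 1 lower, Upf1, an RNA helicase (-0.77, edgeR adjusted p = 0.000124). Tut7 (0.04), which adds uridines, and Eri1 (-0.08), a nuclease that trims the stem-loop, did not pass, although Eri1 did without Ctrl library 3 (-0.11, edgeR adjusted p = 0.0418).

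Among 14 genes of replication-coupled histone chaperones and their partners 2 (14.3%) were called higher and 10 (71.4%) lower. Over all genes these shares were 25.5% and 25.0%, and the median of the list was -0.20. Ssrp1, a subunit of the FACT complex, had 611, 634 and 602 CPM in Ctrl and 515, 521 and 519 in l-FA, and fell (log2 -0.25, edgeR adjusted p = 0.000301). Rbbp4, a histone-binding subunit of CAF-1, was at -0.12 (edgeR adjusted p = 0.0312), a call lost without Ctrl library 1 (0.0753) or 3 (0.0693) or l-FA library 1 (0.128), 2 (0.0639) or 3 (0.124). Among 13 genes of variant chaperones 2 were called higher and 4 lower. Hjurp, the chaperone of the centromeric H3 variant CENP-A, rose from 259, 332 and 253 CPM in Ctrl to 432, 463 and 452 in l-FA (log2 0.67, edgeR adjusted p = 0.00207). Anp32e, which removes H2A.Z, did not pass (-0.04), and Hira, which deposits H3.3, fell (log2 -0.95, edgeR adjusted p = 0.00757) at 6.72 to 8.13 CPM in Ctrl. Among 5 histone variants outside the rule on symbols 0 were called higher and 2 lower. H2ax, the H2A form phosphorylated at DNA breaks, was at -0.19 (edgeR adjusted p = 0.000448) and Macroh2a1, an H2A with a large macrodomain, at -0.11 (edgeR adjusted p = 0.000974).

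**Figure D5:**
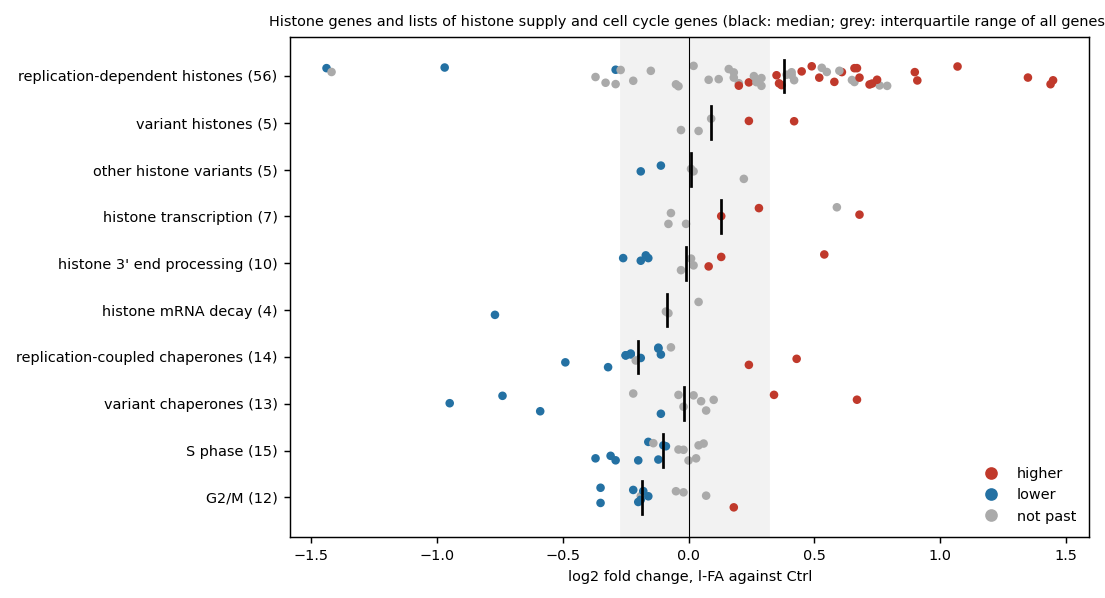
Log2 fold change of l-FA against Ctrl for the tested genes of each group, red where called higher, blue where called lower and grey otherwise, with the median as a black line. Replication-dependent histone genes have a median of 0.38 and variant histone genes one of 0.09, and the grey band gives the interquartile range of single genes over all genes tested (-0.27 to 0.32). The chaperone, S phase and G2/M lists have medians of -0.20 to -0.02.

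Cell cycle genes were listed because replication-dependent histone genes are transcribed in S phase. Of 15 S phase genes 0 were called higher and 8 (53.3%) lower, with a median log2 fold change of -0.10, and of 12 G2/M genes 1 (8.33%) was called higher and 7 (58.3%) lower, with a median of -0.18, beside 25.5% higher and 25.0% lower over all genes. The summed CPM of the S phase list was 6640 to 6690 in Ctrl and 6130 to 6280 in l-FA. The relation of these lists to the histone genes was not tested.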

How the data were processed

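RNA of 3 Ctrl and 3 l-FA HSC libraries was amplified as oligo(dT)-primed cDNA (SMART-Seq HT) and sequenced on an Illumina NovaSeq. Whole-number counts for every gene, not normalized, were deposited by the authors, together with FPKM values that carry no TMM scaling. The submitters' processing notes name HISAT2, SAMtools 1.3.1, StringTie, edgeR and build GRCm39. The counting tool, its strand setting and its handling of reads with several matches are not given in the sources used here. Samples were grouped by their labels.

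Differences were tested on the counts in R 4.3.3 with edgeR 4.0.16 (TMM, filterByExpr, glmQLFit, glmQLFTest) and Benjamini-Hochberg adjustment over all genes kept, at an adjusted p under 0.05 and, with the study's limit, a 2-fold change. The code was tested on simulated data. The deposited FPKM values were used for levels between genes and for shares. Histone genes and gene lists were chosen with earlier results of these data known. Values in every library are given for the variants tested, the 10 replication-dependent genes of the highest mean count and members past both thresholds. From each supply list the genes past both thresholds, or else the 2 of the highest mean count, are named, and any other is said to be chosen after its values were seen. Marker lists are given by counts and ranges, with the surface genes named after their values were seen. Shared stretches were counted over all 75-base stretches of GENCODE M21 transcripts. The alternatives were each library left out in turn, DESeq2 1.42.0, other scalings (RLE, upper quartile), a filter of at least 10 counts per library or none, a block for the replicate number and glmTreat against a 1.2-fold change. The amplified molecules carried no identifiers, so counting error covers only part of the error of the 19287735 to 20380610 counts per library.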

Additional observations from a re-analysis of the deposited data

How the results depend on the processing

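The 24 histone genes called higher became 16 to 26 and the 3 called lower 2 to 4 under the alternatives other than glmTreat, a test against a 1.2-fold change, and 18 to 24 and 2 to 3 on leaving out 1 library. The count past 2-fold, 5, ran from 5 to 7 on leaving out 1 library. With glmTreat 15 histone genes of 61 were called, 13 higher and 2 lower, beside 14.7% higher and 12.6% lower over all genes. Supply genes called higher, 10, and lower, 21, ran from 8 to 11 and from 16 to 19 on leaving out 1 library. Medians ran from 0.33 to 0.43 for replication-dependent and 0.05 to 0.12 for variant genes, and ratios of summed CPM from 1.23 to 1.28 and 1.07 to 1.08. The variant ratio moved to 1.19 on FPKM and to 1.19 without H3f3b. On leaving out 1 library H2ac18 ran from -0.04 to 0.34, reversed without l-FA replicate 3, and H2az1 from -0.08 to 0.06, reversed without l-FA replicate 2, and the cause was not tested. Of 27 called histone genes 18 were called under each of the other 12 alternatives that tested them, and 15 of the 18 also with glmTreat, the exceptions being H2ac6, H2az2 and H2bc4. The other 9 (H1f1, H2ac8, H2ac11, H2ac23, H2bc11, H2bc14, H4c3, H4c9 and H4c16) were lost with the replicate block and on leaving out at least 1 library. Without a low-count filter edgeR adjusted p was 0.0576 for H2ac11, 0.0504 for H2bc14, 0.0662 for H4c16, 0.0729 for Casp8ap2 and 0.069 for Cpsf3, and with upper-quartile scaling 0.0525 for H2ac8, 0.083 for Cpsf3 and 0.0643 for Rbbp4. Replicate numbers are shared between groups, and deviations of same-numbered libraries were hardly correlated over genes (r = 0.0187, -0.0132 and -0.05). These values cannot show whether libraries of the same number shared a sort or batch, which the labels do not give. With the replicate block 16 histone genes were higher, 2 lower and 5 past 2-fold, beside 22.7% higher and 22.1% lower over all genes. Low counts, near-identical copies, oligo(dT) priming, the unstated number of mice per library and the marker shifts limit these values, and their shares were not tested.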
